A study of Mus musculus with 6 samples.

Results

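The transcripts described here encode 10 enzymes that make, interconvert and break down L-serine and glycine: Phgdh, Psat1, Psph, Shmt1, Shmt2, Gldc, Amt, Gcsh, Sds and Agxt2. They were chosen by name, for their place in the pathway, from the 24346 gene symbols of the series, and all 10 had a row in each table. The choice was made with earlier results of these data known. Kidney messenger RNA was measured by RNA-seq in 6 libraries of mice, 3 labelled vehicle and 3 labelled D-serine. Both groups received a serine-free diet for 1 week and had 1 kidney removed (unilateral nephrectomy, UNX), and tissue was taken 2 days after that operation. The groups differed in the drinking water, which held no addition for vehicle and 0.1% D-serine for the treated mice. The labels state no strain, sex, age or genotype. They also leave unsaid whether the libraries of a group stem from separate mice, and the p-values then cover only the spread among libraries, which may be technical. The values are FPKM, fragment numbers divided by transcript length and by library size, so that levels can also be compared between genes.

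L-serine is made from the glycolytic intermediate 3-phosphoglycerate by the enzymes PHGDH, PSAT1 and PSPH in turn. Serine hydroxymethyltransferases turn serine into glycine and back, with a carbon unit carried on folate. The glycine cleavage system of the mitochondrion takes glycine apart and hands its carbon to folate, and in the proximal tubule it works together with mitochondrial serine hydroxymethyltransferase to make serine from glycine, for which the kidney is a known source. D-serine, given here in the water, is the mirror-image form and is not a product of these enzymes. The comparison asked how the transcripts of the L-serine and glycine pathway stood in the remaining kidney with and without D-serine.

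None of the enzymes passed the test between the groups. Of the 10, 9 reached the minimum of a mean of 1 FPKM over the 6 libraries, and 0 of the 9 passed limma at an adjusted p of 0.05, where 0.0767% of the 11737 genes tested did (0.00852% higher and 0.0682% lower). At an unadjusted p under 0.05 there were 4 (Agxt2, Amt, Shmt2 and Phgdh), against 27.7% of all genes tested. For these 4 the D-serine libraries did not overlap the vehicle libraries: Phgdh was higher, and Shmt2, Amt and Agxt2 were lower. The same held for 35.8% of the genes tested (16.5% higher, 19.4% lower), so that 4 of 9 is near the background. Phgdh reached the minimum through the D-serine libraries, since its vehicle mean was 0.89 FPKM. With D-serine 3 of the 9 were higher, against 48.9% of all genes tested. The median log2 difference, on the scale of log2(FPKM + 1), was -0.067 for the 9 enzymes and -0.0078 for all genes tested.

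Promoter sequences are shown for the 4 enzymes whose groups did not overlap and for Psat1, which follows Phgdh in the pathway so that the letters behind the motif counts can be seen. Each is a stretch of 180 bases from RefSeq (GRCm38.p6), 5′ to 3′ on the gene's strand. Capitals mark matches, on either strand, to CCAAT (the CCAAT box, bound by NF-Y), TGACNNNGC (the core of the antioxidant element bound by NRF2) or CAAAGTCCA (a site type of HNF4, a factor of the proximal tubule). The stretches are chr3:98339970-98340149 (minus strand) for Phgdh, chr19:15925060-15925239 (minus) for Psat1, chr10:127522445-127522624 (minus) for Shmt2, chr9:108296673-108296852 (plus) for Amt and chr15:10358353-10358532 (plus) for Agxt2. Each ends just before the RefSeq start, except for Amt, where it ends 52 bases earlier, before an upstream start annotated in GENCODE. For Phgdh and Psat1 the GENCODE gene also begins upstream of the RefSeq start, at 98339990 and 15947337. The last bases of the Phgdh stretch and all of the Psat1 stretch thus lie inside the GENCODE gene.
Phgdh: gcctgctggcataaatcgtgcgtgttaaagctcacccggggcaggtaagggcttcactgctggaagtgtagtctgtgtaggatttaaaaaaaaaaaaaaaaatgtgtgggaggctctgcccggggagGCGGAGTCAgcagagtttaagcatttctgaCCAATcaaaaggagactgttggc
Psat1: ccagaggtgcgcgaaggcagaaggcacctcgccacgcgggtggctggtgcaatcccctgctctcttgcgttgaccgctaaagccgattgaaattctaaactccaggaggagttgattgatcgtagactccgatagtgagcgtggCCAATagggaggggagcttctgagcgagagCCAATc
Shmt2: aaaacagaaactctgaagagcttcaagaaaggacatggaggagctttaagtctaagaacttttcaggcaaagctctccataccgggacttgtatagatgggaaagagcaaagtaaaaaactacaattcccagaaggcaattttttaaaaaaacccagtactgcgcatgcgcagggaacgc
Amt: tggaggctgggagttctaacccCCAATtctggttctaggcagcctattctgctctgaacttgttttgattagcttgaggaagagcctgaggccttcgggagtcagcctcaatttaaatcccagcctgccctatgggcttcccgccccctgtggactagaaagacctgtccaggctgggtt
Agxt2: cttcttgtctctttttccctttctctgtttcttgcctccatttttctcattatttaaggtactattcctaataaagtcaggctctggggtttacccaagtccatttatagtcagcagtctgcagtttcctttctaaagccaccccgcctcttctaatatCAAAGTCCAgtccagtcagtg

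Matches were counted in the 250 bases before the RefSeq start of 9 of the enzymes, all but Sds, and in the 32851 promoters of the same table. CCAAT was found in 7 of the 9 (Phgdh, Psat1, Psph, Shmt1, Gldc, Amt and Gcsh) and in 33.8% of all promoters. Its first base lay at -23 and, outside the stretch shown, at -193 from the Phgdh start, at -36 and -6 from that of Psat1 and at -210 from that of Amt. TGACNNNGC matched in Phgdh alone (at -53), against 10.2% of promoters, and CAAAGTCCA in Agxt2 alone (at -21), against 0.384% of promoters. The last motif was searched after the Agxt2 sequence had been seen. TGATGNAA, a form of the element bound by ATF4, CACGTG, the E-box bound by Myc, and TGACGTCA, the cyclic AMP response element, matched in none of the 9, against 3.45%, 6.02% and 1.55% of promoters. None of the 6 motifs matched in the Shmt2 window. The capitalised matches do not overlap one another, and a match is a run of letters, not a measured binding site.

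**Figure D1:**
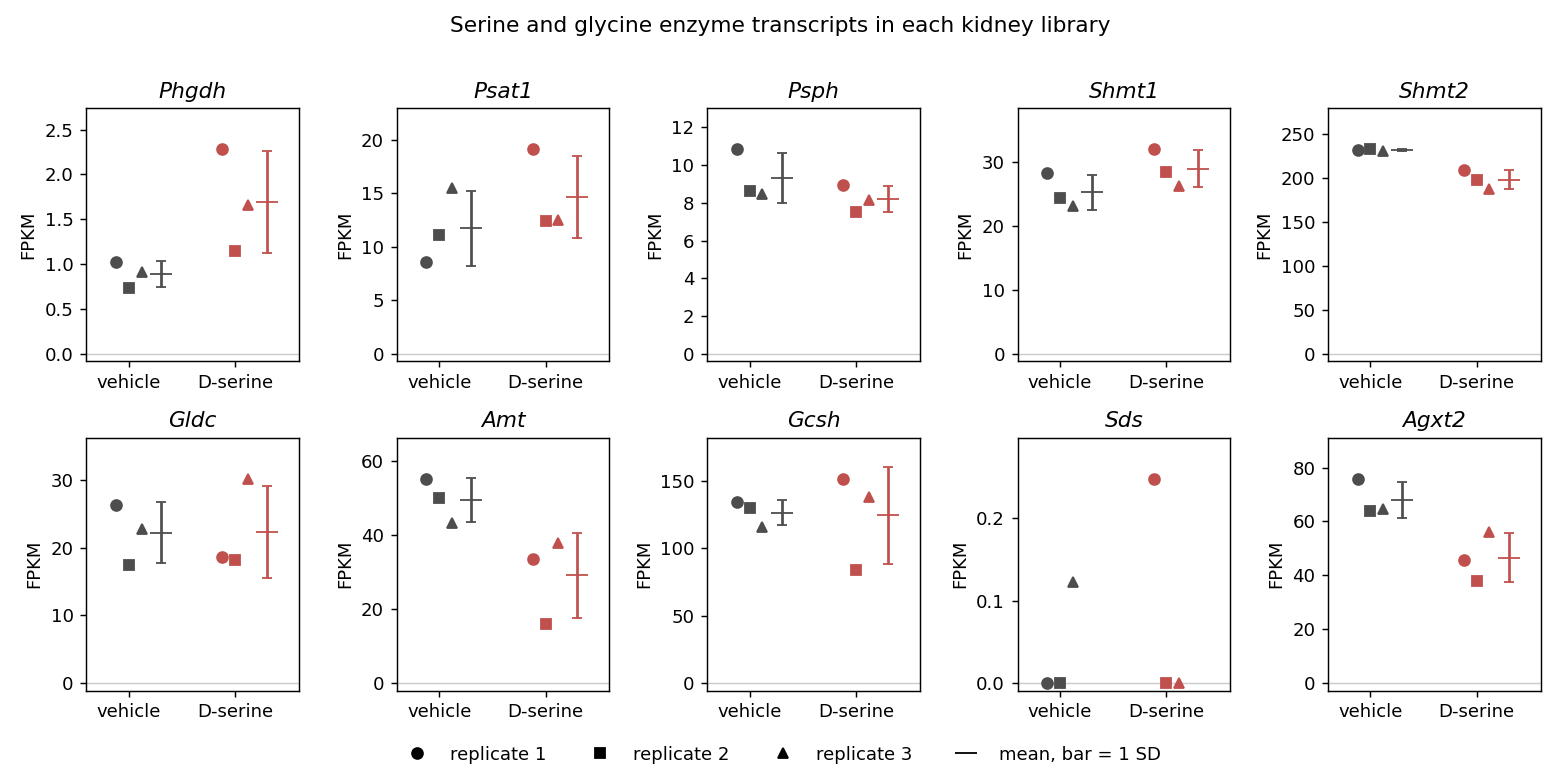
FPKM of each of the 10 enzymes in the 3 vehicle and 3 D-serine libraries, 1 panel per gene with its own linear axis from 0, and the mean with 1 SD beside the points (not drawn for Sds). The D-serine points lie above all vehicle points for Phgdh and below them for Shmt2, Amt and Agxt2.

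The levels spanned a wide range, from 214.5 FPKM for Shmt2, the mean over the 6 libraries, to 0.0618 FPKM for Sds. Shmt2 (187.1 to 232.3 FPKM) stood above Gcsh (83.8 to 151.7 FPKM) in every library, with no overlap. Gcsh was in turn clear of Agxt2 (38 to 75.8 FPKM). Agxt2, Amt, Shmt1, Gldc, Psat1 and Psph followed, and each overlapped its neighbour in that order, although Agxt2 was above Amt in 6 of 6 libraries. Psph (7.53 to 10.8 FPKM) was clear of Phgdh (0.734 to 2.28 FPKM), and Phgdh of Sds. The mitochondrial Shmt2 and Gcsh thus held the top places, and Phgdh, the first enzyme of serine synthesis, stood next to last.

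Phgdh encodes phosphoglycerate dehydrogenase, which opens the serine synthesis pathway, and lies on chromosome 3 (98313170 to 98339990, GENCODE M21, mm10). It was at 1.02, 0.734 and 0.917 FPKM in the vehicle libraries, against 2.28, 1.14 and 1.66 FPKM in those given D-serine. The lowest D-serine library, replicate 2, stood just above the highest vehicle library, replicate 1. The means were 0.89 ± 0.144 and 1.69 ± 0.571 FPKM (SD, n = 3 each), a ratio of 1.9, and the log2 difference was 0.49 ± 0.19 (SE, limma adjusted p = 0.15). With a smaller pseudocount of 0.1 or 0.01 FPKM the difference was 0.82 or 0.88, without passing.

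These values rest on few fragments. With depth taken into account, the Phgdh values are whole multiples of 1 step of 0.0637 FPKM, to within 0.0011 of a fragment in every library. This gives 16, 11 and 13 fragments with vehicle and 32, 15 and 23 with D-serine. Exact Poisson intervals, which cover counting error only, ran from 9.15 to 26 around the 16 fragments of vehicle replicate 1 and from 8.4 to 24.7 around the 15 of D-serine replicate 2, so that the gap between the groups was not detectable at this depth for that pair. Around the 32 fragments of D-serine replicate 1 the interval ran from 21.9 to 45.2, and without that library the log2 difference was 0.34, while without replicate 2 it was 0.65. In the transcript set of GENCODE M21, 22 other genes, 20 of them pseudogenes, match a Phgdh coding transcript over at least 300 bases at 90.4 to 98.7% identity, 15 of them over more than 1000 bases. Only 2 of the 22 have a row in the tables, both listed at 0 in all 6 libraries, and no source used here says how fragments that fit several places were assigned. The level of Phgdh is therefore uncertain.

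Psat1, phosphoserine aminotransferase, lies on chromosome 19 (15904678 to 15947337). It was at 8.58, 11.1 and 15.5 FPKM in the vehicle libraries, against 19.1, 12.4 and 12.5 FPKM in those given D-serine. The groups overlapped, since vehicle replicate 3 was above 2 of the D-serine libraries. The log2 difference was 0.31 ± 0.24 (SE, limma adjusted p = 0.41), with an unadjusted 95% interval from -0.24 to 0.86, and it dropped to 0.12 when either D-serine replicate 1 or vehicle replicate 1 was left out. Leaving out vehicle replicate 3 gave 0.52. A single annotated pseudogene matches Psat1 at 91% identity. D-serine replicate 1 held the highest value of both Phgdh and Psat1.

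Psph, phosphoserine phosphatase, completes the pathway and lies on chromosome 5 (129765558 to 129787449). Its values were 10.8, 8.6 and 8.48 FPKM without D-serine, against 8.92, 7.53 and 8.13 FPKM with it, and the groups overlapped. The log2 difference of -0.16 ± 0.12 (SE, limma adjusted p = 0.41) had the opposite sign to those of Phgdh and Psat1, and it was -0.056 without vehicle replicate 1. Exons of Psph share 452 bases with Cct6a, a chaperonin gene on the other strand at 106.8 and 85.69 FPKM in the 2 groups. No source used here says whether counting used strand, so reads of the pair may not be told apart.

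**Figure D2:**
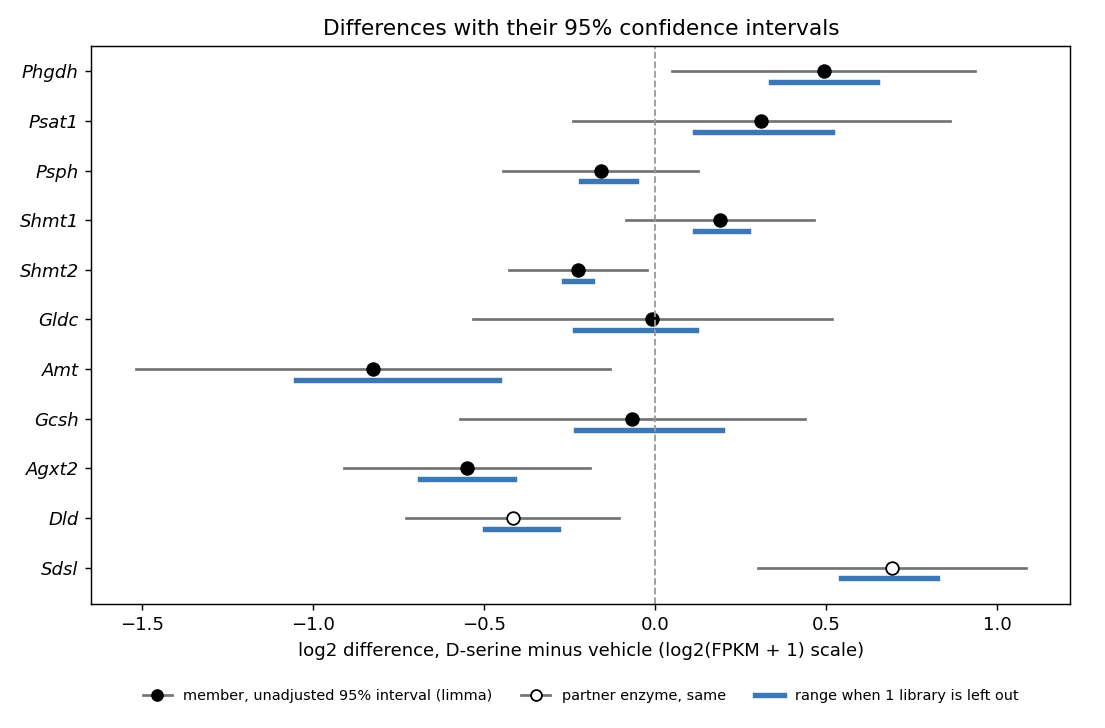
Log2 difference of each tested enzyme, D-serine minus vehicle, as points with the unadjusted 95% interval of limma (grey) and the range over the 6 fits that each leave out 1 library (blue); filled points are the 9 tested members and open points the partners Dld and Sdsl. The leave-one-out ranges of Gldc and Gcsh cross 0, and that of Amt runs from -1.05 to -0.46.

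The pair of serine hydroxymethyltransferases pointed in opposite directions. Shmt2, the mitochondrial enzyme, lies on chromosome 10 (127517123 to 127522444) and was at 231.6, 232.3 and 229.9 FPKM in the vehicle libraries, against 209.1, 197.4 and 187.1 FPKM in those given D-serine. All D-serine libraries were below all vehicle libraries, and the SD of the vehicle libraries was 0.53% of their mean. By the estimated depth these stand for about 4000 to 4500 fragments per vehicle library. Counting error alone would on average give a wider spread, so this SD likely understates the spread. The log2 difference was -0.23 ± 0.086 (SE, limma adjusted p = 0.15), and the ratio of the means was 0.856. With quantile normalization the difference was -0.15.

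Shmt1, the cytosolic enzyme, lies on chromosome 11 (60788104 to 60811718). It was at 28.3, 24.4 and 23.1 FPKM in the vehicle libraries, against 32, 28.5 and 26.3 FPKM in those given D-serine, with vehicle replicate 1 inside the D-serine range. The log2 difference was 0.19 ± 0.12 (SE, limma adjusted p = 0.32), and 0.12 without D-serine replicate 1. Its exons share 184 bases with Smcr8 on the other strand, at 5.24 and 3.74 FPKM in the 2 groups. A ratio of these transcripts within a library does not depend on the library's total. Shmt2 over Shmt1 was 8.17, 9.53 and 9.97 without D-serine, against 6.53, 6.93 and 7.11 with it, with no overlap.

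In the glycine cleavage system, GLDC takes the carboxyl group off glycine, GCSH carries what is left on a lipoyl arm, AMT passes the carbon to folate, and DLD, which also serves other mitochondrial complexes, recharges the arm. The lowest library of the decarboxylase, Gldc (chromosome 19, 30098447 to 30175429), was a vehicle library and the highest a D-serine library. Its values were 26.3, 17.4 and 22.8 FPKM without D-serine, against 18.6, 18.2 and 30.1 FPKM with it. The log2 difference was -0.0082 ± 0.22 (SE, limma adjusted p = 0.98), with an unadjusted 95% interval from -0.53 to 0.52, wide enough to hold a moderate difference in either direction.

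Amt, on chromosome 9 (108296853 to 108302302), had the log2 difference farthest from 0 of the 9 tested members on the log2(FPKM + 1) scale with all 6 libraries, although the ratio of means was farther from 1 for Phgdh (1.9) than for Amt (0.589). It was at 55.2, 49.9 and 43.2 FPKM in the vehicle libraries, against 33.5, 16 and 37.7 FPKM in those given D-serine. All D-serine libraries were below all vehicle libraries, and replicate 2 was lower than any other. The means were 49.4 ± 6.01 and 29.1 ± 11.5 FPKM (SD, n = 3 each), and the log2 difference was -0.82 ± 0.30 (SE, limma adjusted p = 0.13). Without D-serine replicate 2 the difference was -0.46 (limma adjusted p = 0.14), and without D-serine replicate 3 it was -1.05 (limma adjusted p = 0.083). The 16 FPKM of replicate 2 stand for about 230 fragments, by the estimated depth.

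Gcsh, on chromosome 8 (116981810 to 116993537), was the most abundant of the 3 cleavage members, and 5 other genes, 4 of them pseudogenes, match it at up to 93.2% identity. Its values were 134.1, 129.8 and 116 FPKM without D-serine, against 151.7, 83.8 and 138.1 FPKM with it. Replicate 2 was the lowest of all 6 libraries, while the other D-serine libraries were above all vehicle libraries. The log2 difference was -0.067 ± 0.22 (SE, limma adjusted p = 0.86) and turned to 0.19 without D-serine replicate 2 (limma adjusted p = 0.30). Dld was at 175.9, 195.7 and 172.9 FPKM in the vehicle libraries, against 145.7, 112.5 and 151.6 FPKM in those given D-serine, without overlap and again lowest in replicate 2. Its log2 difference was -0.42 ± 0.13 (SE, limma adjusted p = 0.11).

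Proportions of the cleavage subunits were also computed within each library. Gcsh over Amt was 2.43, 2.6 and 2.69 without D-serine, against 4.52, 5.24 and 3.66 with it, and Amt over Gldc was 2.1, 2.87 and 1.89 against 1.8, 0.879 and 1.25. Neither ratio overlapped between the groups, while Gcsh over Gldc did (5.1, 7.47 and 5.09 against 8.14, 4.6 and 4.58). In all, 9 such ratios were computed after the values had been seen. Sdsl over Shmt2 did not overlap either (means of 0.0284 without D-serine and 0.0561 with it). The exact two-sided permutation p of Shmt2 over Shmt1, Gcsh over Amt, Amt over Gldc and Sdsl over Shmt2 was 0.1 each. It was 0.225 adjusted over the 9 ratios. As 0.1 is the smallest p that 3 against 3 can give, no ratio could pass 0.05, and this test cannot decide whether they differ.

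**Figure D3:**
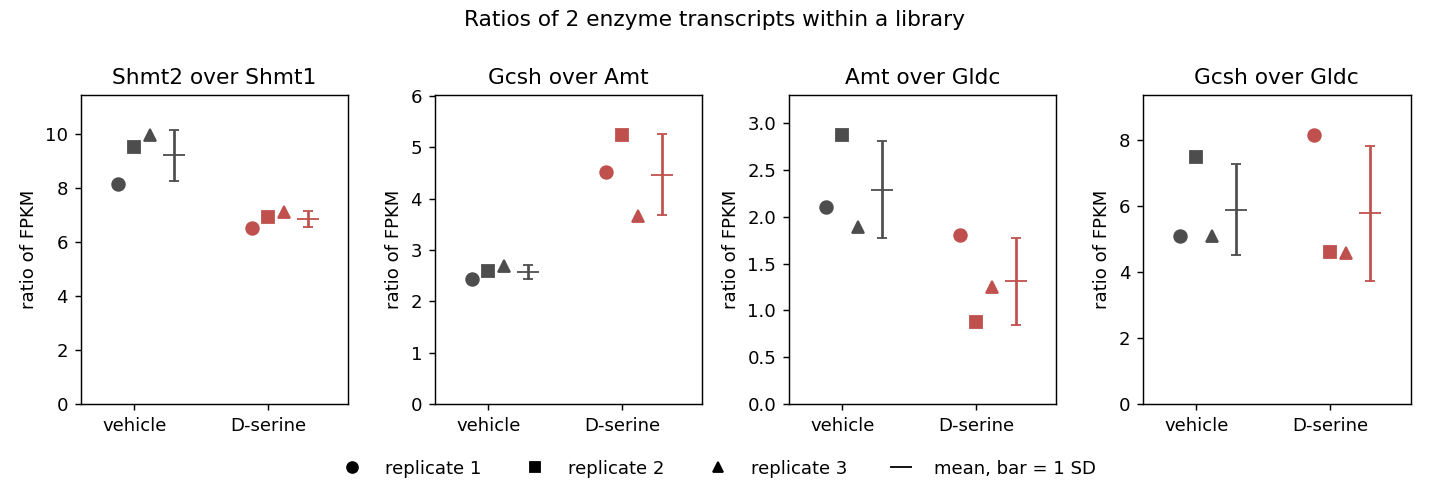
Ratio of the FPKM of 2 enzymes in the same library, for the 3 vehicle and 3 D-serine libraries, with the mean and 1 SD beside the points; axes are linear from 0. Shmt2 over Shmt1 and Amt over Gldc are lower, and Gcsh over Amt higher, in every D-serine library than in any vehicle library, while Gcsh over Gldc overlaps.

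Sds, serine dehydratase, which turns serine into pyruvate and is known as a liver enzyme, was near the floor of detection. It lies on chromosome 5 (120476526 to 120483932) and was at 0, 0 and 0.123 FPKM in the vehicle libraries, against 0.248, 0 and 0 FPKM in those given D-serine. By the step size these stand for 1 fragment in vehicle replicate 3 and 2 in D-serine replicate 1, under the floor of 3 fragments (0.332 to 0.397 FPKM), and no difference could be seen at this depth. Exons of Sds also share 360 bases with Plbd2 on the other strand, at 24.72 and 25.95 FPKM in the 2 groups. Its relative Sdsl, serine dehydratase-like, was at 5.08, 6.65 and 7.97 FPKM in the vehicle libraries, against 12.6, 11.4 and 9.47 FPKM in those given D-serine. All D-serine libraries of Sdsl were above all vehicle libraries, and the log2 difference came to 0.69 ± 0.17 (SE, limma adjusted p = 0.078).

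Agxt2, on chromosome 15 (10358532 to 10410153), encodes a mitochondrial aminotransferase that makes glycine from glyoxylate and breaks down methylarginines and beta-aminoisobutyrate. It was at 75.8, 64 and 64.4 FPKM in the vehicle libraries, against 45.8, 38 and 56 FPKM in those given D-serine. The groups did not overlap, with D-serine replicate 2 the lowest. The log2 difference was -0.55 ± 0.15 (SE, limma adjusted p = 0.092), a mean lower by 31.5%, and it had the smallest p of the 9 tested members. Without D-serine replicate 3 it passed (-0.69, limma adjusted p = 0.0496), and in the other 5 fits without 1 library it did not. The fit without D-serine replicate 3 called 437 of the 11737 genes tested, against 9 in the main fit. Exons of Agxt2 share 155 bases with Gm21973 on the same strand.

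**Figure D4:**
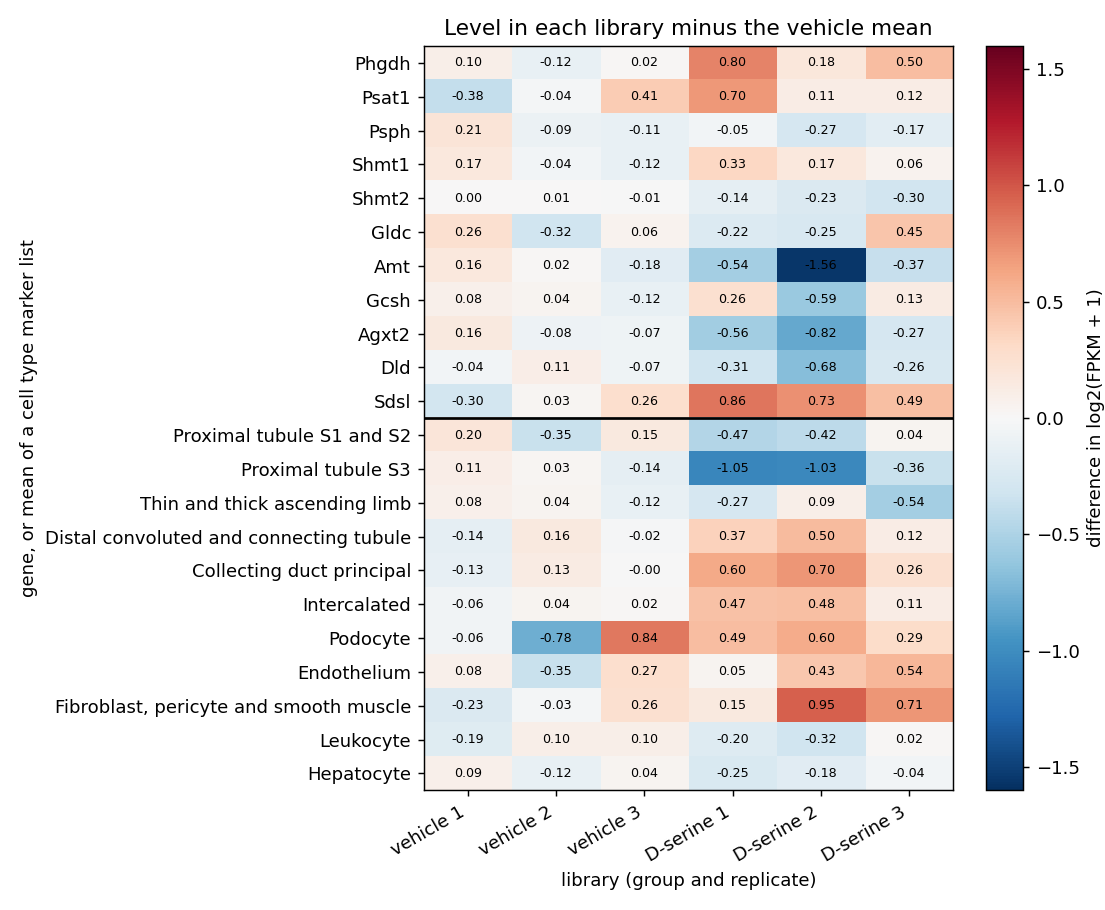
Level in each library minus the vehicle mean, in log2(FPKM + 1), for 9 enzymes with Dld and Sdsl (above the line) and for the mean of each cell type marker list with at least 3 tested genes (below it). In D-serine replicate 2 the value is -1.56 for Amt, -0.82 for Agxt2 and -0.59 for Gcsh, and markers of proximal tubule segment S3 stand at -1.05, -1.03 and -0.36 in the 3 D-serine libraries.

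Marker lists of the kidney's cell types, chosen with earlier results of these data known, were read beside these values. In bulk tissue, fewer cells of a type and less RNA per cell cannot be told apart. Of the S3 markers of the proximal tubule, 8 of 8 tested were lower with D-serine (median log2 difference -0.77). The list had a summed level of 4582 to 5307 FPKM with vehicle and 3237 to 3675 FPKM with D-serine. Most of that sum was Acy3 alone (means of 3851 and 2800 FPKM). Among the 8, Slc5a1 was nearly level (means of 27.97 and 28.06 FPKM, log2 difference -0.021). Of the S1 and S2 markers 11 of 13 were lower, with a median of -0.28, and the summed level overlapped (13794 to 16128 against 12988 to 14404 FPKM). Of the collecting duct principal cell markers 7 of 8 were higher, with a median of 0.69 and sums of 459.8 to 614.7 against 677.1 to 1016 FPKM. In these 3 lists 0 genes passed limma, and at an unadjusted p under 0.05 there were 6 of 8, 3 of 13 and 6 of 8, against 27.7% of all genes tested. In 4 other lists all tested markers were higher with D-serine, with 0 passing limma. These were distal convoluted and connecting tubule (7 of 7, median 0.29), intercalated cells (7 of 7, median 0.39), fibroblasts, pericytes and smooth muscle (7 of 7, median 0.52) and podocytes (5 of 5, median 0.42). At an unadjusted p under 0.05 there were, in that order, 3 of 7, 4 of 7, 2 of 7 and 1 of 5, against the same 27.7%. For podocytes 0 markers were without overlap between the groups. The podocyte sums overlapped as well, at 9.57 to 49.1 FPKM with vehicle and 28.4 to 33.9 FPKM with D-serine. Endothelial markers were higher in 4 of 6, and those of the ascending limb lower in 5 of 7. No marker of these 9 lists was listed at 0 in all 6 libraries. Their part in the values of the 9 tested enzymes was not tested.

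Neighbouring genes of the pathway were read from lists chosen by function, also with earlier results of these data known. Among 24 tested enzymes that use or make serine or glycine, 20 were lower and 4 higher with D-serine (median log2 difference -0.25), and 12 lower and 2 higher ones did not overlap. None passed limma, and 9 lower and 1 higher had an unadjusted p under 0.05. Over all genes tested, 19.4% were lower and 16.5% higher without overlap, and 14.6% were lower and 13.1% higher at that p, and the counts of the lists that follow are to be read against these shares. Dmgdh, which takes a methyl group off dimethylglycine on the way to glycine, had a vehicle mean of 68 ± 6.32 FPKM and a D-serine mean of 38.4 ± 2.93 FPKM (SD, n = 3; log2 difference -0.81, limma adjusted p = 0.057). Cbs, the enzyme that condenses serine with homocysteine, stood at 82.5 and 44.6 FPKM (limma adjusted p = 0.057). Srr, the racemase that links L-serine and D-serine, was at 46.3 and 38.5 FPKM (adjusted p = 0.22), and Dao, the oxidase that breaks down D-serine, at 235.8 and 195.9 FPKM (adjusted p = 0.27). Without D-serine replicate 2 the log2 difference of Dao went from -0.29 to -0.12 and that of Srr from -0.27 to -0.15, and without D-serine replicate 3 that of Dao was -0.43.

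Of 10 genes for lipoylation and for DLD, which charge the arm of GCSH, 5 were higher and 5 lower. None passed limma, and 1 higher and 3 lower had an unadjusted p under 0.05. Nfu1, an iron-sulfur carrier for lipoate synthesis, was at 59.7 and 48.2 FPKM (adjusted p = 0.13). Of 16 tested transporters of serine and glycine, 8 were higher and 8 lower, and 0 passed limma. Those under an unadjusted p of 0.05 were 6 lower and 2 higher ones. The 2 transporters with the smallest p were Slc6a20a and Slc6a9 (limma adjusted p = 0.058 each). Slc6a20a, an imino acid and glycine carrier of the brush border, was at 5.81 and 2.96 FPKM. Slc6a9, the glycine transporter GlyT1, was at 12.7 and 7.62 FPKM.

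Among 11 genes listed for the substrate pathways of AGXT2, 8 were lower and 3 higher. None passed limma, and 4 lower and 2 higher had an unadjusted p under 0.05. The list held not only breakdown genes but also the methyltransferases Prmt1, Prmt3, Prmt6 and Gamt. Abat, which transaminates GABA and beta-alanine, was at 72.1 and 38.2 FPKM (log2 difference -0.91, limma adjusted p = 0.057). Aldh6a1, which acts after the transamination of beta-aminoisobutyrate, was at 348.9 and 192.2 FPKM (log2 difference -0.87, limma adjusted p = 0.058). Both were lower in every D-serine library than in any vehicle library, as Agxt2 was.

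Of 9 tested regulators of the serine synthesis genes, 7 were higher and 2 lower, 0 passed limma and 2 had an unadjusted p under 0.05. These were Ehmt2, a histone methyltransferase, at 29.95 and 35.3 FPKM (adjusted p = 0.15) and Trp53 at 19 and 24.5 FPKM (adjusted p = 0.16). Of 11 tested folate partners 7 were higher and 4 lower. None passed limma, and 2 higher and 2 lower had an unadjusted p under 0.05. Aldh1l1, a cytosolic enzyme that oxidises the folate carbon unit, was at 256.7 and 191.6 FPKM (adjusted p = 0.080), and Mthfd2, the mitochondrial enzyme that acts on the carbon unit released by SHMT2, at 2.12 and 4.97 FPKM (adjusted p = 0.092).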

How the data were processed

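Per the submitters' processing notes, TopHat2 2.0.13, Bowtie2 2.2.3, SAMtools 0.1.19 and Cufflinks 2.2.1 were used with the build mm10. The labels' protocols name TruSeq stranded mRNA reagents. The authors deposited 1 table of FPKM per sample. No source used here names the annotation or strand setting. Depth was estimated from the spacing of the lowest values (relative depth 1, 0.954 and 0.902 for vehicle and 0.893, 0.836 and 0.882 for D-serine), which with 1-transcript genes of GENCODE M21 gave roughly 7030000 to 8400000 mapped fragments per library.

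limma 3.58.1 in R 4.3.3 (lmFit, eBayes with a trend) was fitted to log2(FPKM + 1) of the 11737 genes whose mean reached 1 FPKM, two-sided, with Benjamini-Hochberg adjustment over all of them. The pseudocount of 1 understates differences of low genes. The script was tested on simulated data. Near copies were searched with blastn 2.17.0 (at least 90% identity over 300 bases). Beside the 10 members, Dld, Sdsl, Dao, Srr and Cbs were named in any case, with the 2 smallest p of each of 6 lists. Members, lists and marker lists were chosen with earlier results of these data known. Alternatives covered pseudocounts, minimum, scaling, trend, weights, replicate block, removal of small RNA genes, and omission of 1 library at a time. Count tests were not run, since FPKM are not counts.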

Additional observations from a re-analysis of the deposited data

How the results depend on the processing

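Over 17 alternatives, each with all 9 tested members except that the minimum of 5 FPKM left out Phgdh, 1 call appeared: without D-serine replicate 3, Agxt2 passed, so the count of members called ran from 0 to 1 over the fits that leave out 1 library and was 0 in the other 11 alternatives. The sign held for 7 members. That of Gldc turned with median-of-ratios scaling (0.0069), quantile normalization (0.016), library weights (0.0062) and without vehicle replicate 1 (0.12), vehicle replicate 3 (0.021), D-serine replicate 1 (0.097) or D-serine replicate 2 (0.11), with a lowest value of -0.24 without D-serine replicate 3, and that of Gcsh with library weights (0.072) and without D-serine replicate 2 (0.19; lowest -0.23 without D-serine replicate 1). The number of members without overlap was 3 to 5. It was 3 with the minimum of 5 FPKM, where Phgdh was not tested, and with quantile normalization, where the Phgdh groups overlapped. A count of 5 arose only in fits without 1 library. Over the fits without 1 library, 41.5 to 50.5% of all genes tested did not overlap, against 35.8% in the main fit. Cbs, Dmgdh, Abat and Aldh6a1 passed in 6 of 17 alternatives each (adjusted p 0.0373 to 0.231), Slc6a9 in 5 of 17 and Slc6a20a in 5 of 16, with the sign kept in each. The count of 9 genes called among all tested moved to 171 with a pseudocount of 0.1, 221 with 0.01, 132 with a minimum of 5 FPKM, 15 with median-of-ratios scaling, 269 with library weights and 332 without small RNA genes, and to 2 to 437 without 1 library (437 without D-serine replicate 3, 24 without D-serine replicate 1, and 4, 3 and 2 without vehicle replicates 1, 2 and 3); the cause was not tested. With the replicate number as a block it was 2 and 0 members passed; correlations of deviations between same-numbered libraries were -0.07, 0.0031 and 0.067, so the numbers show no pairing. Depth limits Phgdh and Sds most.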
